A study of Rattus norvegicus with 18 samples.

Results

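The late response to a liver carcinogen is described here in 6 of the 18 livers of the series: 3 from rats dosed with the carcinogen diethylnitrosamine (DEN) for 84 days and 3 from their day-84 controls. They were chosen by their titles alone, and no measured value entered the choice. All were male F344/NSlc rats bought at 5 weeks of age. DEN rats received DEN at 4 mg/kg in saline, in 5 mL/kg by gavage every day. Control rats are called vehicle in the titles, whereas the treatment protocol describes them as untreated animals on basal diet. The saline and the gavage therefore cannot be told apart from DEN if that protocol holds. Other groups of 3 used below are DEN rats and controls at day 28, and rats given carbon tetrachloride (CCl4) at 100 mg/kg in corn oil for 84 days. The labels number the livers but do not say that each came from its own animal. The p-values therefore measure only a spread between samples, pooled within all 6 groups of the series, CCl4 rats at day 28 included. That spread may be technical.

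DEN is activated by hepatic cytochrome P450 enzymes to species that ethylate DNA. Repeated dosing of rats gives rise to foci of altered hepatocytes, recognised by placental glutathione S-transferase (Gstp1) and gamma-glutamyltransferase (Ggt1), which can precede liver tumours. Such foci carry high levels of enzymes under the transcription factor NRF2, which switches on glutathione and quinone metabolism, and low levels of several P450 enzymes of mature hepatocytes. DNA damage also stabilises the transcription factor p53, which induces cell cycle inhibitors and repair genes.

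RNA was hybridised to 1-colour Agilent arrays. Values are relative signals, the processed signal of a probe divided by the 75th percentile of its array, and they are compared only between arrays for the same probe. Differences are DEN minus control on the log2 scale, with the standard error (SE) of limma's linear model and p-values adjusted by Benjamini-Hochberg over 10409 genes. A gene is said to have risen or fallen where the adjusted p was under 0.05. At that threshold 2319 genes rose with DEN (22.3% of those tested) and 3409 fell (32.8%), together 55.0%. The arrays of the groups did not overlap for 66.8% of genes tested. Of the calls, 947 rose and 486 fell by at least 2-fold (9.10% and 4.67%). Where a gene was not well above background on any array of one side, the change is given as a lower bound. For this, the mean of the bright group is set against a floor on each dim array. The floor is the lowest signal that counted as well above background, or the probe's own signal where that was higher. A gene dim on all arrays of one side was kept by its bright side alone, so the filter set its direction. Counts of lists include such genes.

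The 6 arrays shared a slide, with DEN in its row 2 and controls in its row 1, so slide row and treatment cannot be told apart. The 75th percentile was 284 to 317 signal units in DEN livers and 197 to 207 in controls. Probes well above background made up 53.4% to 54.7% in DEN livers and 49.2% to 51.2% in controls. Relative to the spike-in probes of the kit, the 75th percentile was 0.70 higher with DEN (log2). Scaling to those probes instead adds 0.70 to every difference between DEN and control at day 84, so that each such fall smaller than 0.70 changes sign, and 7308 genes were then called higher and 298 lower. Differences are therefore relative to the bulk of genes, and in whole liver fewer cells of a type cannot be told apart from less RNA per cell. Correlation between arrays was 0.989 to 0.994 within DEN and 0.994 to 0.996 within controls, against 0.936 to 0.966 between the groups. The liver label held in both groups, as albumin (Alb), the main plasma protein, had relative signals of 541 to 645 in DEN livers and 976 to 1010 in controls.

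Most markers of preneoplastic foci rose at day 84. Of 21 members tested of a list that also holds fetal liver markers, 18 rose and 1 fell. The median difference was 1.88 on the log2 scale, against -0.08 over all genes tested. It was also 1.88 with the 2 members dim on all arrays of one side set at their bounds. The list was chosen with earlier results of these data known. The members that rose include the defining enzymes of rat liver foci, in first place Gstp1, Ggt1, the aldehyde dehydrogenase Aldh3a1 and the aldo-keto reductase Akr1b8.

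Gstp1, the placental glutathione S-transferase used to stain foci, had relative signals of 543, 513 and 569 in DEN livers, against 19.6, 20.8 and 21.7 in controls. On this probe, the brightest of 3, every DEN liver was far above every control. The DEN values ran opposite to the 75th percentiles of these arrays (299, 317 and 284 signal units), so the unscaled signals were nearly equal. No probe carried the saturation flag, but whether this probe was near the top of its signal range was not otherwise tested. The likeness of the DEN livers, the fold size and the SE therefore hold for this probe only. The difference was 4.71 ± 0.11, or 26.1-fold (adjusted p = 1.2e-12), the smallest adjusted p among the genes tested at day 84. The 3 Gstp1 probes rose by 4.71 to 7.13, and on the other two DEN 2 was the highest and DEN 3 the lowest of the DEN livers, with 405, 473 and 288 on one and 416, 527 and 277 on the other.

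Ggt1, which cleaves glutathione outside the cell, had relative signals of 3.19, 6.65 and 2.12 in DEN livers, against 0.102, 0.0517 and 0.053 in controls. The liver numbered DEN 2 was the highest, and only 1 control array was well above background. The difference was 5.76 ± 0.58 (adjusted p = 4.14e-06). Aldh3a1, which oxidises aromatic and lipid aldehydes, had relative signals of 55.7, 80 and 26.4 in DEN livers and 0.331, 0.361 and 0.364 in controls. Its difference of 7.12 ± 0.27 was 139-fold (adjusted p = 3.75e-10), but its other probe rose by 10.33, so the size depends on the probe. Akr1b8 had relative signals of 92, 145 and 54.4 in DEN livers and 0.571, 0.532 and 0.622 in controls, a difference of 7.29 ± 0.32 (adjusted p = 1.39e-09). In all 3 genes the order of the DEN livers was the same, with DEN 2 highest and DEN 3 lowest, and the groups did not overlap.

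The glutathione peroxidase Gpx2 had relative signals of 63.1, 116 and 47.8 in DEN livers, against 0.924, 0.562 and 0.579 in controls, a difference of 6.72 ± 0.31 (adjusted p = 2.33e-09). Abcc3, which exports glucuronides and bile salts across the sinusoidal membrane, had 3.39, 5.18 and 2.84 in DEN livers and 0.135, 0.138 and 0.139 in controls (4.75 ± 0.24, adjusted p = 4.05e-09). Both separated the groups on every array. The aflatoxin aldehyde reductase Akr7a3 rose by 4.33 ± 0.21 (adjusted p = 3.1e-09), the retinal dehydrogenase Aldh1a1 by 3.29 ± 0.21 (5.7e-08) and the prostaglandin reductase Ptgr1 by 2.82 ± 0.15 (1.23e-08).

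Fetal markers of the list gave other values. Alpha-fetoprotein (Afp), the fetal counterpart of albumin, had relative signals of 48.9, 42.7 and 49.8 in DEN livers and 51.6, 48.8 and 50 in controls, which overlap (difference -0.09 ± 0.14, adjusted p = 0.582). The Notch ligand relative Dlk1 fell by 1.58 on the log2 scale (adjusted p = 0.00511), with 2 of 3 DEN arrays above background, and the growth factor Igf2 rose by 0.82 ± 0.33 (0.0472), a call lost on leaving out any 1 of the 6 arrays. Afp, Dlk1 and Igf2 were named after their values were seen. The surface proteins Cd44 and Prom1 rose by 1.88 ± 0.36 (0.000713) and 1.77 ± 0.45 (0.00464).

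**Figure D1:**
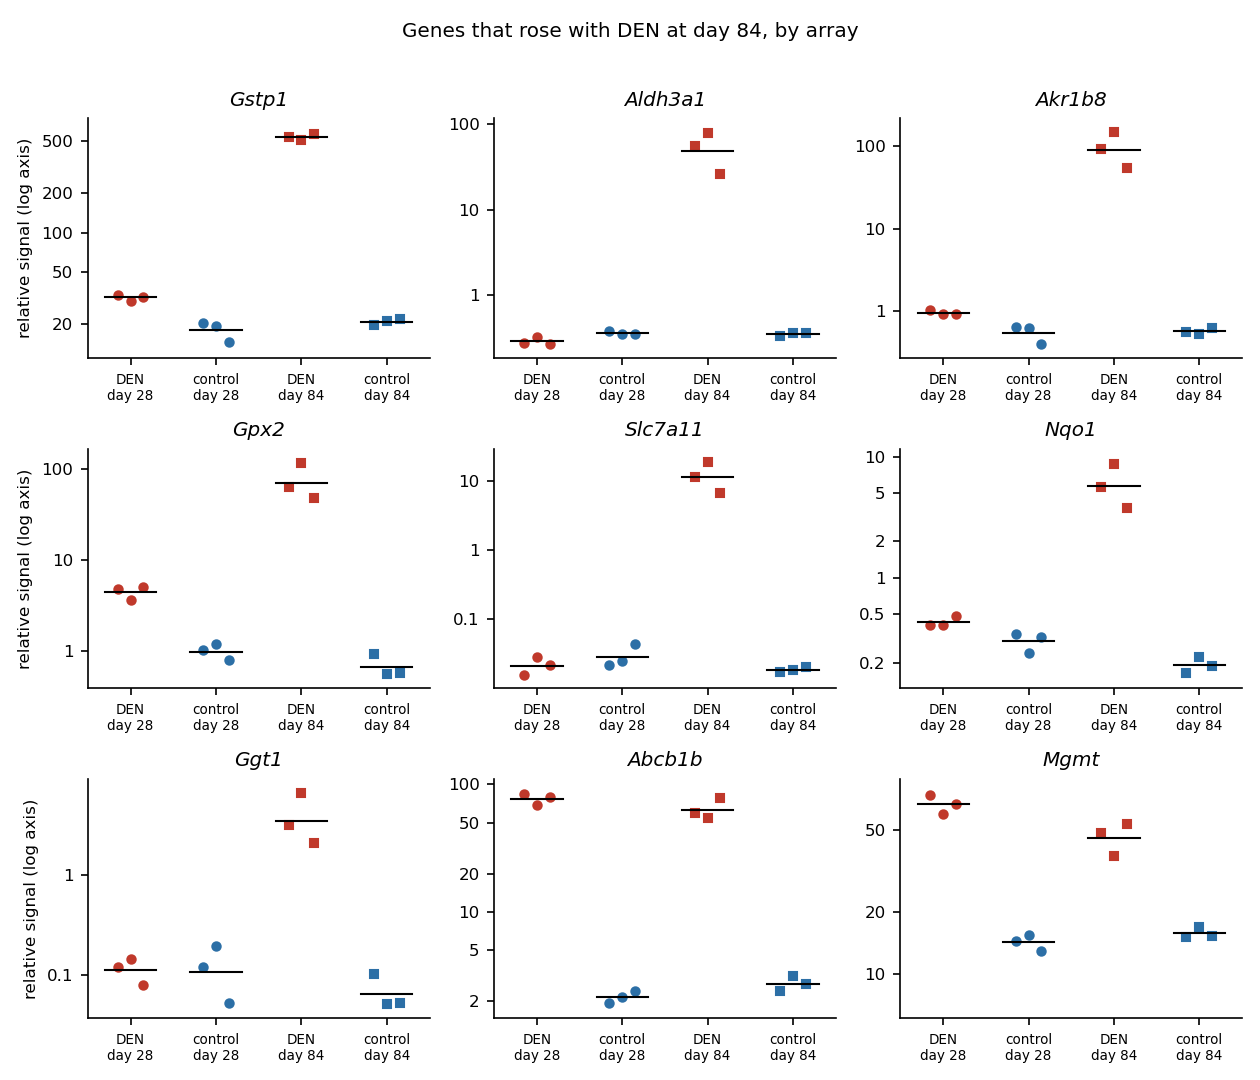
Relative signal (processed signal over the 75th percentile of the array, log axis) of 9 genes that rose with DEN at day 84. Each point is 1 array of DEN or control livers at day 28 and day 84 and the black bars are geometric means, and the 3 DEN livers at day 84 lie above the 3 controls in every panel.

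Promoter sequences are shown for 3 of the enzymes that rose, because they hold the core letters of the antioxidant response element bound by NRF2. The motif searched was TGACNNNGC or its reverse complement GCNNNGTCA, in the window of 250 bases before to 50 after the start of each gene (RefSeq, GRCr8). Capitals mark the match and the rest is in lower case. Gstp1 is at chr1:210769656-210769955, minus strand, Gpx2 at chr6:101229984-101230283, minus strand, and Ephx1 at chr13:95263068-95263367, minus strand, and each is printed 5′ to 3′ in the direction of the gene.
Gstp1: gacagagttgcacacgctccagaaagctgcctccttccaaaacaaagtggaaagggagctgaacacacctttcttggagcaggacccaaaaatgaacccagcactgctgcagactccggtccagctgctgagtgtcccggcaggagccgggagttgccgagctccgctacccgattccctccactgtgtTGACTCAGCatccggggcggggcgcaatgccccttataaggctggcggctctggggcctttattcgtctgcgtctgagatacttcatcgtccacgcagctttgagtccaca
Gpx2: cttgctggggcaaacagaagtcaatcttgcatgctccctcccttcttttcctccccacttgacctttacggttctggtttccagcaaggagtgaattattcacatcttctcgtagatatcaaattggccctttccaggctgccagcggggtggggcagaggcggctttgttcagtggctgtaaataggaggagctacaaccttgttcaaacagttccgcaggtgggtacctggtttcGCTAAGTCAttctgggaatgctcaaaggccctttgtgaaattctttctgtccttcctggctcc
Ephx1: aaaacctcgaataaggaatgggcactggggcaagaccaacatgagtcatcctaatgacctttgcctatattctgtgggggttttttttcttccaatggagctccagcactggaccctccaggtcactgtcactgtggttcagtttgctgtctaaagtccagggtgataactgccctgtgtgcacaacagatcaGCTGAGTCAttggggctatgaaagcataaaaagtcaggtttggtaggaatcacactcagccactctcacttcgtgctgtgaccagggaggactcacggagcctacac
The Gstp1 match, TGACTCAGC, lies 61 bases before the start and overlaps the AP-1 motif TGACTCA. In Gpx2 the match GCTAAGTCA lies 13 bases before the start, and in 1 of the 2 windows of Ephx1 the match GCTGAGTCA lies 57 bases before it, both on the opposite strand. The Ephx1 match overlaps the AP-1 motif as well, read on the opposite strand. Among members of the NRF2 list that rose, 6 of 21 windows (18 genes found in the table) held the motif, 28.6%. Among the preneoplastic markers that rose it was 3 of 16 windows (14 genes), 18.8%. Over all 33469 windows the share was 12.1%, and over the windows of genes tested it was 14.5%.

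Genes of the NRF2 and glutathione system rose broadly. Of 27 members tested, 20 rose and 2 fell, with a median difference of 1.06. It was also 1.06 with the 1 member dim on all arrays of one side set at its bound. Slc7a11, which imports cystine for glutathione synthesis, had relative signals of 11.3, 18.7 and 6.74 in DEN livers. It was 0.017, 0.0186 and 0.0201 in controls and not well above background on any of them. The rise was at least 153-fold (adjusted p = 1.1e-09). The 3 probes of Slc7a11 all rose, by 2.82 to 9.24, so its size depends on the probe.

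The quinone reductase Nqo1 had relative signals of 5.63, 8.68 and 3.8 in DEN livers and 0.165, 0.222 and 0.187 in controls, a difference of 4.91 ± 0.24 (adjusted p = 3.1e-09). The sulfiredoxin Srxn1 had 57.4, 97.9 and 41.6 in DEN livers and 4.2, 4.23 and 5.49 in controls (3.74 ± 0.23, adjusted p = 3.15e-08). For Gclc, the catalytic subunit of the first step of glutathione synthesis, the signals were 115, 169 and 99.5 in DEN livers and 16.4, 18.2 and 18.8 in controls (2.81 ± 0.16, 1.89e-08). DEN 2 was again the highest liver for each, and the groups did not overlap. The epoxide hydrolase Ephx1 had 199, 233 and 178 in DEN livers and 41.7, 41.8 and 43.5 in controls, a difference of 2.26 ± 0.12 (9.6e-09).

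Other enzymes of the list also rose. The alpha and mu class glutathione transferases Gsta3, Gsta4, Gstm1, Gstm3 and Gstm4 rose by 0.62 to 2.39 on the brightest probe of each, and thioredoxin reductase (Txnrd1) and glutathione reductase (Gsr) by 1.46 ± 0.17 and 1.23 ± 0.16. The 3 Gsta3 probes disagreed in size, from 1.13 for the brightest to 9.15 for one with relative signals of 38.9, 55.4 and 28.8 in DEN livers and 0.0963, 0.0416 and 0.0838 in controls. Haem oxygenase (Hmox1) rose by 0.44 ± 0.15 (adjusted p = 0.0241), and that call was lost without DEN 1, control 1 or control 3. The gene of NRF2 itself, Nfe2l2, had a difference of 0.04 ± 0.14 (0.836), and that of its inhibitor Keap1 one of -0.12 ± 0.10 (0.305). Those that fell, by the brightest probe of each, were the ferritin light chain Ftl1 (-0.69 ± 0.15) and the autophagy receptor Sqstm1 (-0.25 ± 0.09). With scaling to the spike-in probes Ftl1 and Sqstm1 were higher, by 0.01 and 0.45. The 5 Ftl1 probes ranged from -0.69 to 0.7, and 3 rose while only the brightest fell, so no direction for Ftl1 is drawn. The Sqstm1 call was lost without DEN 1, DEN 3, control 2 or control 3. Both were named after their values were seen.

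The largest rises outside these lists were in genes with little or no signal in control liver. Pcp4, which modulates calmodulin and is best known from Purkinje neurons, had relative signals of 13.7, 22.2 and 9.18 in DEN livers and 0.0177, 0.0173 and 0.0183 in controls. None of the controls was well above background, and the rise was at least 191-fold (adjusted p = 2.33e-09). Bex1, an adaptor protein of neurons, had 23.3, 38.3 and 22.9 in DEN livers against 0.044, 0.0481 and 0.0682 in controls, at least 371-fold higher (1.13e-07).

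Ugt2b7, a glucuronosyltransferase, had relative signals of 12.2, 13.5 and 11.4 in DEN livers and 0.031, 0.0172 and 0.0279 in controls, at least 167-fold higher (adjusted p = 1.21e-10). Cyp2c24, a P450 enzyme, had 7.72, 11.1 and 5.86 in DEN livers and 0.015, 0.0163 and 0.0213 in controls, at least 108-fold higher (3.23e-11). The spread of Ugt2b7 among the DEN livers was small beside that of Pcp4 or Bex1.

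Dnaaf1, needed to assemble the dynein arms of motile cilia, was at 5.84, 9.03 and 3 in DEN livers and 0.018, 0.0246 and 0.0206 in controls, at least 73.3-fold higher (adjusted p = 1.76e-09). The beta-defensin Defb1 was at 3.02, 7.36 and 2.54 in DEN livers and 0.0137, 0.017 and 0.0201 in controls, at least 52-fold higher (1.05e-07). Epdr1, Trim54, Klhl14 and Ppm1j, also not well above background in any control, rose by at least 43.8-fold, 45.1-fold, 18.4-fold and 23.9-fold. DEN 2 was the highest liver for all of these but Klhl14, where DEN 1 was.

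Cpa1, carboxypeptidase A1 of the exocrine pancreas, had relative signals of 2, 3.2 and 0.77 in DEN livers and 0.0328, 0.0162 and 0.019 in controls, at least 23.1-fold higher (adjusted p = 4.37e-07). Of the 7 pancreatic acinar markers listed, the other members tested were Cel at -0.60 ± 0.27 (0.0695) and Ctrb1 at -0.55 ± 0.29 (0.12), both with lower mean signal in DEN livers. Trypsinogen Prss1, elastase Cela1, lipase Pnlip and amylase Amy2a3 were too dim in both groups to be tested.

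Genes of cell division rose throughout. All 22 tested members of the mitosis and spindle list rose, with a median difference of 2.35, or 2.09 with the 3 genes that were dim in all controls set at their bounds. Mki67, the Ki-67 antigen of dividing cells, had relative signals of 3.94, 4.48 and 3.48 in DEN livers and 0.927, 0.794 and 1.14 in controls, a difference of 2.06 ± 0.20 (adjusted p = 3.09e-06). Cdk1, the kinase that drives entry into mitosis, had 9.07, 11.3 and 7.51 in DEN livers and 1.17, 0.923 and 1.91 in controls (2.85 ± 0.29, 4.69e-06). Nusap1, a spindle protein, had 1.68, 1.92 and 1.52 in DEN livers and 0.284, 0.275 and 0.418 in controls (2.41 ± 0.24, 3.82e-06). DEN 2 was the highest DEN liver and control 3 the highest control for each of these, and the groups stayed apart. Mybl2, a transcription factor of the cell cycle, had 1.4, 0.896 and 1.31 in DEN livers and 0.0612, 0.0498 and 0.0284 in controls, at least 16-fold higher (2.6e-08), and unlike the others it was lowest in DEN 2.

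The promoters of 3 of these genes are shown for the cell cycle genes homology region, whose letters are TTTGAA (reverse complement TTCAAA), given in capitals. Mki67 is at chr1:199952544-199952843, minus strand, Cdk1 at chr20:19265043-19265342, plus strand, and Nusap1 at chr3:127057045-127057344, plus strand (RefSeq, GRCr8), each 5′ to 3′ in the direction of the gene.
Mki67: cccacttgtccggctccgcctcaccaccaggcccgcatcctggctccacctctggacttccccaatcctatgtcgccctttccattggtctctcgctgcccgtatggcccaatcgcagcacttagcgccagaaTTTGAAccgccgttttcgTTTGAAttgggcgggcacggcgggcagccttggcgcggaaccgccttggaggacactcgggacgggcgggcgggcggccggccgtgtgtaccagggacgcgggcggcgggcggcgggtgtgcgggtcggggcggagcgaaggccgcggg
Cdk1: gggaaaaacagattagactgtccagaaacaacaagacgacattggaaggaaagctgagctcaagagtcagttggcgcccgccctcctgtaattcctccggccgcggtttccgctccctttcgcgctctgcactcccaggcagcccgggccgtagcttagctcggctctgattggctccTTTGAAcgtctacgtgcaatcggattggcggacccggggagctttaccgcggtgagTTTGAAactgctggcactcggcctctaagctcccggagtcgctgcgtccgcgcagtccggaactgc
Nusap1: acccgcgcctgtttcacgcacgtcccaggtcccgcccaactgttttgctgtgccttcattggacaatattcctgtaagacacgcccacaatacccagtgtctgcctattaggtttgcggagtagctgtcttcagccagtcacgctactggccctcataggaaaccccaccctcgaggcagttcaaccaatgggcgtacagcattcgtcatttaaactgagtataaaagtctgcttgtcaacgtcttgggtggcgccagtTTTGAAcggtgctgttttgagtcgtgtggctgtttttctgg
The matches lie 117 and 99 bases before the start in Mki67, 72 and 16 bases before it in Cdk1, and within the 50 bases after it in Nusap1. Of the windows of mitosis genes that rose, 10 of 18 (17 genes) held the motif on either strand, 55.6%, against 18.3% of all windows and 11.9% of windows of genes tested. The CCAAT box, CCAAT or ATTGG, was in 13 of 18 of them, 72.2%, against 37.5% of all windows and 38.1% of windows of genes tested.

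Replication and G1 genes moved the same way. Of 16 tested genes of DNA replication and nucleotide synthesis, 14 rose and none fell (median 1.24, or 0.91 with the gene dim in all controls at its bound). Rrm2, the ribonucleotide reductase subunit that sets the supply of deoxynucleotides, had relative signals of 19.9, 20.2 and 14.9 in DEN livers and 2, 1.32 and 3.16 in controls (3.16 ± 0.29, adjusted p = 2.01e-06). Its 4 probes rose by 1.26 to 3.34. Thymidylate synthase (Tyms), thymidine kinase (Tk1) and the helicase factor Cdc45 rose by 1.57 ± 0.14, 1.58 ± 0.19 and 1.15 ± 0.14, and the helicase subunits Mcm2 and Mcm3 by 0.57 ± 0.18 and 1.54 ± 0.21. The Mcm2 call was lost without DEN 2 or control 2.

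Of 16 G1 cyclins, kinases and inhibitors, 12 rose and 2 fell (median 1.14, or 0.96 with bounds). Cdkn2a, whose products include the inhibitor p16, had relative signals of 0.765, 1.17 and 0.43 in DEN livers and 0.148, 0.171 and 0.0775 in controls, a difference of 2.54 ± 0.36 (adjusted p = 6.03e-05). Of the controls, 2 were well above background for Cdkn2a, and 2 for Cdkn2c. Cyclin E1 (Ccne1) rose by 2.35 ± 0.29, the inhibitor Cdkn2c by 1.93 ± 0.15, the transcription factor E2f1 by 1.17 ± 0.11 and cyclin D1 (Ccnd1) by 0.79 ± 0.16. Thus drivers and inhibitors of G1 were both among the members that rose. The 2 that fell, Cdk2 (-0.68 ± 0.13) and cyclin D3 (Ccnd3, -0.27 ± 0.10), were higher with scaling to the spike-in probes, by 0.02 and 0.44. The Ccnd3 call was lost on leaving out any array but DEN 3. They were named after their values were seen.

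DNA repair genes were mixed, with 8 of 17 rising and 2 falling (median 0.30). The checkpoint kinase Chek1, well above background on 1 control array, rose by 1.54 ± 0.25 and Brca2 by 0.81 ± 0.14. The uracil glycosylase Ung fell by 1.0 on the log2 scale (2.21e-05) and the alkyladenine glycosylase Mpg by 0.19 (0.0386), and Mpg was 0.51 higher with scaling to the spike-in probes. The Mpg call was lost without DEN 1, DEN 3, control 1 or control 3.

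Targets of p53 and the damage response held 16 members that rose and 6 that fell among 25 tested, with a median of 0.90 (0.71 with the gene dim in all controls at its bound). The falls count Cdkn1a by its brightest probe, although its other two probes rose. Ccng1, cyclin G1, an early p53 target, had relative signals of 8.11, 6.58 and 9.01 in DEN livers and 1.57, 1.8 and 1.96 in controls (2.15 ± 0.11, adjusted p = 7.1e-09). Mdm2, the ligase that degrades p53, had 3.41, 2.54 and 2.97 in DEN livers and 0.909, 0.966 and 0.879 in controls (1.69 ± 0.12, 1.7e-07). Zmat3, an RNA-binding p53 target, had 2.91, 2.9 and 2.94 in DEN livers and 1.13, 1.15 and 1.17 in controls (1.34 ± 0.08, 4.95e-08). For Ccng1 and Mdm2 the DEN 2 liver was the lowest of the DEN livers, and for Zmat3 the 3 DEN livers were within 2.9 to 2.94.

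Abcb1b, a multidrug exporter, had relative signals of 59.4, 54.3 and 78 in DEN livers and 2.42, 3.15 and 2.73 in controls, a difference of 4.52 ± 0.18, or 23-fold (adjusted p = 4.18e-10). The 3 Abcb1b probes rose by 4.21 to 6.87, so the size depends on the probe. Mgmt, which removes alkyl groups from guanine in DNA, had 48.2, 37.5 and 53.5 in DEN livers and 15.1, 16.9 and 15.2 in controls (1.55 ± 0.13, 8.79e-07). The pro-apoptotic gene Bax rose by 0.90 ± 0.08. Bbc3, which encodes another pro-apoptotic protein, had a difference of -0.01 ± 0.20 (0.976), with overlapping groups. Mgmt, Bax and Bbc3 were named after their values were seen.

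The inhibitor p21 (Cdkn1a) has 3 probes that disagree. The brightest over the series, which the rule used, had relative signals of 28.3, 25.3 and 28.1 in DEN livers and 41.1, 41 and 37.3 in controls, a fall of 0.55 on the log2 scale that turned to 0.15 higher with scaling to the spike-in probes. The second had 60.5, 40.3 and 73.1 in DEN livers and 4.13, 4.16 and 3.24 in controls, a difference of 3.88 ± 0.22 (adjusted p = 1.53e-08). The third had 0.336, 0.248 and 0.313 in DEN livers and 0.0159, 0.0376 and 0.0186 in controls (3.73 ± 0.36, 3.18e-06). No direction for Cdkn1a is drawn from them. Such a conflict was found in 37 of 5158 genes with several probes, and in 2 of 111 such genes examined for the text, Cdkn1a and Ftl1. Cp and Inhbb, each counted as a fall in its list by the brightest probe, have another probe that rose.

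Genes of mature hepatocytes fell, most of them by less than 2-fold. Of 25 genes of the secretory and metabolic list, none rose and 20 fell, with a median of -0.67, which became -0.21 with quantile normalization and 0.03 with scaling to the spike-in probes. Alb had relative signals of 645, 541 and 641 in DEN livers and 1010, 1010 and 976 in controls (-0.72 ± 0.12, adjusted p = 0.00033). Its difference was -0.01 with scaling to the spike-in probes, so this fall depends on the scaling. Transthyretin (Ttr) fell by 0.83, the fibrinogen chain Fgb by 0.71 and the bile acid receptor Nr1h4 by 0.92, while apolipoprotein A1 (Apoa1) had a difference of -0.01 ± 0.12 (0.943). The transcription factor Hnf4a fell by 0.61, but was 0.10 higher with scaling to the spike-in probes. Acute phase proteins followed, with 12 of 19 falling and 2 rising (median -0.72, -0.02 with spike-in scaling). Complement C3 fell by 0.72 (difference -0.02 with spike-in scaling), Itih3 by 0.93 and C-reactive protein (Crp) by 1.12. The protease inhibitor A2m rose by 2.15 ± 0.50 (0.00255), and was named after its value was seen.

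Xenobiotic P450 enzymes split by member. Of 25 tested, 15 fell and 4 rose, with a median of -0.72 (-0.02 with spike-in scaling). Cyp2a2, a testosterone hydroxylase of male rats, had relative signals of 25.1, 15.8 and 34.9 in DEN livers and 81.2, 87.4 and 83.8 in controls (-1.81 ± 0.33, adjusted p = 0.000504). Cyp1a2, which oxidises aromatic amines, had 7.61, 4.02 and 13.3 in DEN livers and 21.2, 20.1 and 20.5 in controls (-1.47 ± 0.36, 0.00334). The 3 DEN livers spread widely in both, with DEN 2 lowest, while the controls were tight. Besides Cyp2c24, those that rose were Cyp2c12 (3.60 ± 0.16), Cyp3a62 (2.02 ± 0.28) and Cyp2c22 (0.65 ± 0.22), whose call was lost without DEN 1, DEN 3 or control 3. Many of these genes have close relatives in the rat genome, and what their probes share was not tested.

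Sex-biased genes of rat liver, which follow the pattern of growth hormone secretion, moved in opposite senses. Of 7 female-predominant genes tested, 6 rose and none fell (median 2.62). Cyp2c12, the classic female-specific steroid hydroxylase, had relative signals of 17.2, 22.8 and 16.5 in DEN livers and 1.63, 1.74 and 1.27 in controls (adjusted p = 1.76e-09). Akr1b7 was at least 6.57-fold higher (0.00014), and Abcc3, also in this list, is given above. Of 13 genes listed as male-predominant, 7 fell and 2 rose (median -0.91, -0.21 with spike-in scaling). Cyp2c13 had relative signals of 176, 125 and 184 in DEN livers and 342, 297 and 306 in controls (-0.98 ± 0.24, 0.00354). The 2 that rose were Dhrs7 (1.01 ± 0.09) and A1bg (3.28 ± 0.51, above background on 1 control array). All rats were male, so the sex bias of the listed genes was not tested, and A1bg may not belong in the male list. In the growth hormone and IGF axis, 6 of 11 fell and 3 rose, among them the receptor Ghr, at 13.2, 10.7 and 20 in DEN livers and 43, 47.4 and 39.5 in controls (-1.61 ± 0.24, 9.17e-05). Igf1 fell by 1.21 and its carrier Igfals by 1.37.

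The largest falls included enzymes and secreted proteins. Inmt, which methylates indolethylamines, had relative signals of 0.256, 0.214 and 0.726 in DEN livers and 28.3, 37.1 and 29.3 in controls, a difference of -6.52 ± 0.82, or 91.9-fold (adjusted p = 2.46e-05). Mup4, a major urinary protein, had 21.4, 7.89 and 20.5 in DEN livers and 267, 244 and 212 in controls (-3.99 ± 1.31, 0.0193), and the call was lost without DEN 2. It has near-identical relatives, so the probe may read several genes. Oat, ornithine aminotransferase of pericentral hepatocytes, had 8.65, 6.18 and 8.8 in DEN livers and 67.6, 67.3 and 84 in controls (-3.22 ± 0.36, 1.07e-05). The groups were far apart for all 3.

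Aox3, an aldehyde oxidase, had relative signals of 0.365, 0.0601 and 0.319 in DEN livers and 6.55, 5.65 and 3.62 in controls (-4.74 ± 0.81, adjusted p = 0.000282). Stac3, known from calcium release in skeletal muscle, had 7.85, 2.18 and 8.56 in DEN livers and 101, 77.6 and 89.4 in controls (-4.07 ± 0.77, 0.000616). DEN 2 was the lowest in both. The vasopressin receptor Avpr1a fell by 3.10 (1.81e-05), leukotriene C4 synthase (Ltc4s) by 3.02 (3.12e-05), and Inhba, the subunit of activin A, by 3.02 (1.56e-05). Inhba was at 3.7, 1.62 and 2.38 in DEN livers and 25.5, 21.7 and 13.6 in controls. Lrtm2, Plppr1 and the olfactory receptor Or9s13 fell by 3.42, 3.28 and 2.97.

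Some genes were not well above background on any DEN array. Tenm2, a cell adhesion protein, was at 0.427, 0.425 and 0.425 in controls and at least 7.62-fold lower with DEN (adjusted p = 1.21e-05). Ptk6, a tyrosine kinase, was at least 4.81-fold lower (1.87e-07) and the calcium channel subunit Cacna1s at least 2.64-fold lower (1.32e-06). Mmd2 was at 0.681, 1.36 and 0.213 in controls, a spread larger than for the others, and at least 10.4-fold lower (0.000673). The NADPH oxidase Nox4, above background on 1 DEN array, fell by 3.56 (0.000262).

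**Figure D2:**
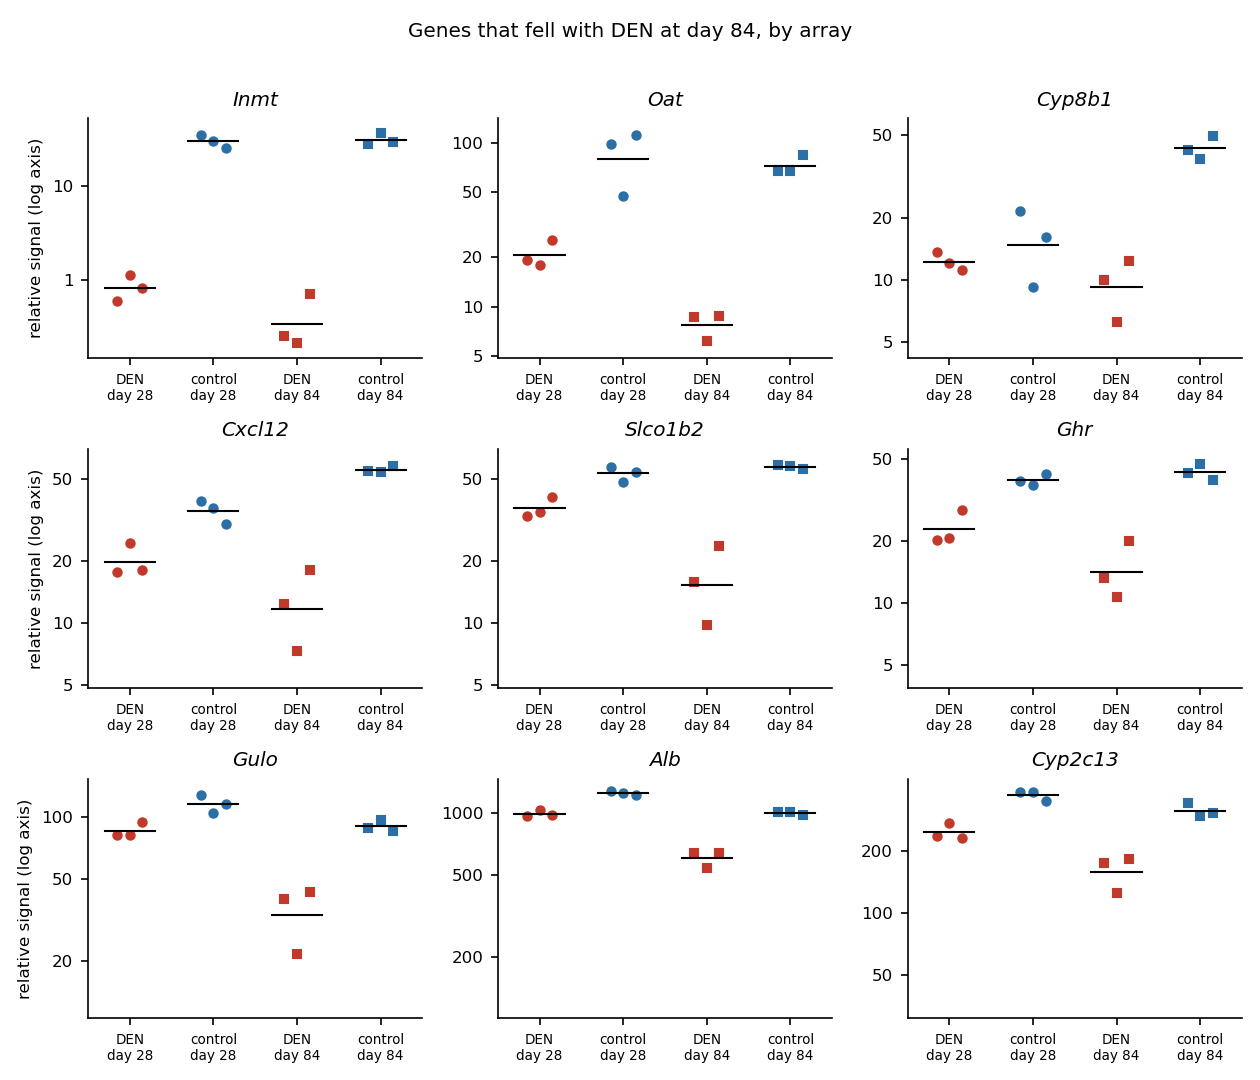
Relative signal (log axis) of 9 genes that fell with DEN at day 84. Each point is 1 array of DEN or control livers at day 28 and day 84 and the black bars are geometric means, and the 3 DEN livers at day 84 lie below the 3 controls in every panel.

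Both zones of the lobule were among the falls. Of 14 periportal genes 11 fell and none rose (median -0.77, -0.07 with spike-in scaling), and of 11 pericentral genes 8 fell and 1 rose (median -0.87, -0.16 with spike-in scaling). The gluconeogenic enzyme G6pc1 had relative signals of 22.8, 33.3 and 76 in DEN livers and 218, 272 and 215 in controls (-2.60 ± 0.50, adjusted p = 0.000704). Periportal Cyp2f4 fell by 1.16 and Agxt by 1.43, and the urea cycle enzyme Ass1 by 0.84. On the pericentral side, glutamine synthetase (Glul) fell by 0.83, the transcription factor Tbx3 by 1.69 and Gulo, which makes vitamin C, by 1.43. The exception was Rhbg, an ammonium transporter, at 8.75, 8.9 and 8.78 in DEN livers and 0.656, 0.589 and 0.636 in controls (3.81 ± 0.18, 2.97e-09), with almost no spread within either group.

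Bile acid genes fell in 10 of 15 cases and rose in 2 (median -0.63, but 0.07 with spike-in scaling). Cyp8b1, the 12-alpha-hydroxylase, had relative signals of 9.99, 6.24 and 12.3 in DEN livers and 42.6, 38.3 and 49.6 in controls (-2.24 ± 0.30, adjusted p = 3.89e-05). The uptake carrier Slco1b2 had 15.8, 9.78 and 23.7 in DEN livers and 58.6, 57.8 and 55.9 in controls (-1.90 ± 0.29, 0.000119). The conjugating enzymes Slc27a5 and Baat fell by 1.66 and 1.16. Cyp7a1, the rate-limiting enzyme of bile acid synthesis, had 6.7, 5.54 and 8.68 in DEN livers and 5.01, 4.1 and 8.9 in controls, which overlap (0.27 ± 0.38, 0.559). The members that rose, the sterol exporter subunits Abcg5 (1.19 ± 0.32) and Abcg8 (at least 1.25-fold), were named after their values were seen.

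Most lipid synthesis genes called at day 84 fell. Of 21 cholesterol genes 12 fell and 2 rose (median -0.56, but 0.14 with spike-in scaling). The synthase Hmgcs1 fell by 1.11. Squalene epoxidase (Sqle), named after its value was seen, rose by 1.04 ± 0.23. Of 15 genes of fatty acid and triglyceride synthesis 11 fell and 1 rose (median -1.0, -0.29 with spike-in scaling). The desaturase Fads1 fell by 1.54, the elongase Elovl5 by 1.37 and the carboxylase Acaca by 1.09. The elongase Elovl6, named after its value was seen, rose by 1.69 ± 0.51 (0.0122), a call lost without DEN 2 or without control 1.

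Among PPARalpha targets and genes of fatty acid oxidation 15 of 22 fell and 1 rose (median -0.59, but 0.12 with spike-in scaling). The fatty acid carrier Fabp1 fell by 0.98 and Cpt1a, the gate to mitochondrial oxidation, by 0.91. The thioesterase Acot1 was at least 4.28-fold higher (adjusted p = 0.000231). Of 21 respiratory chain subunits 14 fell and none rose, all by less than 2-fold (median -0.27, but 0.44 with spike-in scaling).

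Of 19 genes of the amino acid and endoplasmic reticulum stress response, 5 rose and 5 fell (median -0.18, but 0.53 with spike-in scaling). Over all genes tested, 22.3% rose and 32.8% fell. Phgdh, the first enzyme of serine synthesis, had relative signals of 25.6, 39.3 and 23.6 in DEN livers and 1.41, 1.26 and 1.01 in controls (4.56 ± 0.25, adjusted p = 1.16e-08). Psat1, the next enzyme, had 4.7, 6.26 and 3.56 in DEN livers and 0.477, 0.614 and 0.54 in controls (3.12 ± 0.24, 3.93e-07). Asparagine synthetase (Asns) had 2.45, 2.99 and 2.32 in DEN livers and 0.627, 0.65 and 0.532 in controls (2.10 ± 0.15, 1.33e-07). No array of either group crossed over in these 3 genes. The transcription factor Atf5 fell by 1.46 (5.79e-06).

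Of 18 conjugation and export genes 5 rose and 7 fell (median 0.29), beside 22.3% and 32.8% of all genes tested. Besides Ugt2b7, the exporters Abcc4 (1.82 ± 0.14, adjusted p = 2.52e-07) and Abcc1 (1.79 ± 0.21, 1.22e-05) rose, while the bilirubin transferase Ugt1a1 fell by 0.96.

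**Figure D3:**
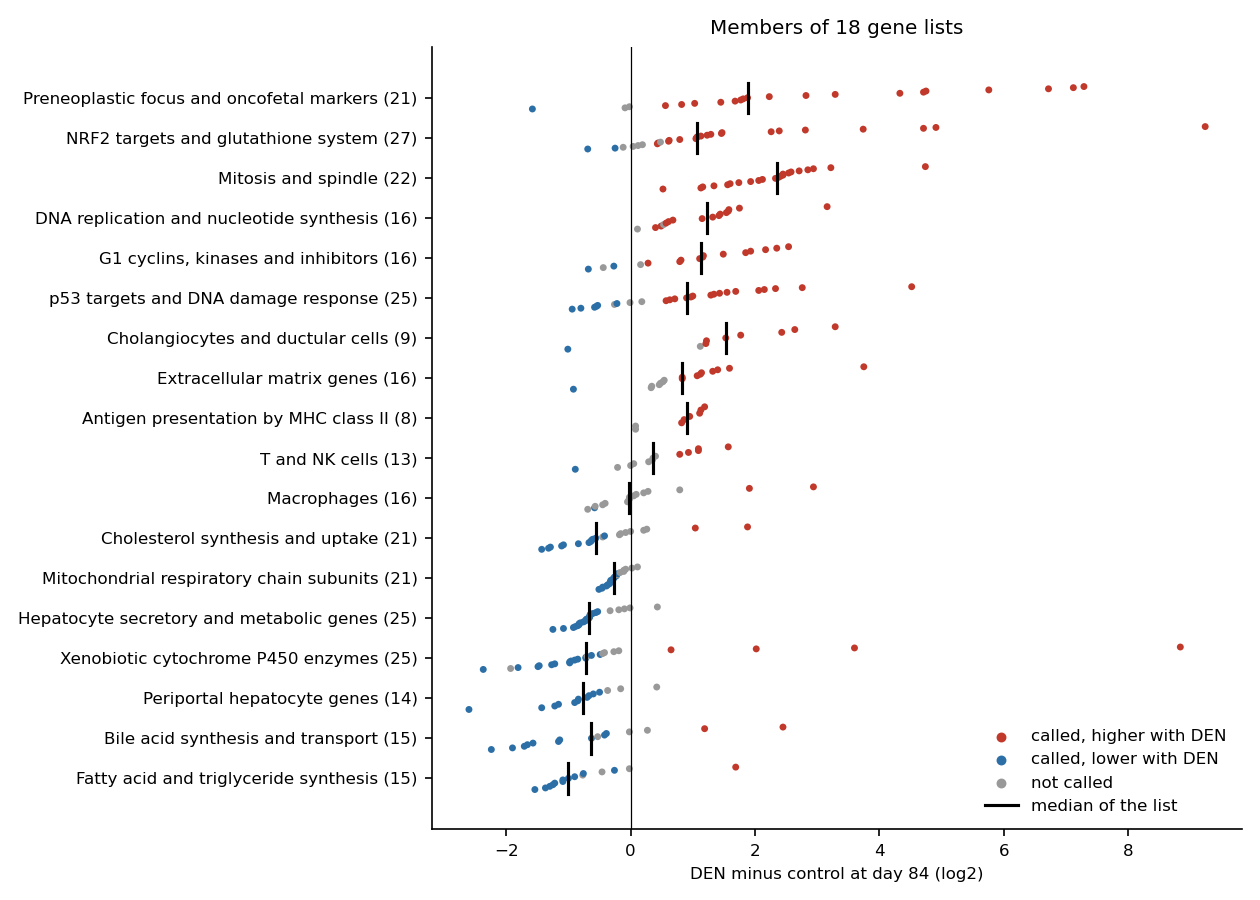
DEN minus control at day 84 (log2) for the tested members of 18 gene lists. Each point is 1 gene, red where it rose, blue where it fell and grey where the adjusted p was not under 0.05, and black bars are list medians, which run from 2.35 for mitosis genes down to -1.0 for fatty acid and triglyceride synthesis. With scaling to spike-in probes all points move up by 0.70, and the medians of the hepatocyte secretory, bile acid, cholesterol, macrophage and respiratory chain lists then lie above 0.

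Bile duct markers rose with the focus markers. Of 9 cholangiocyte and ductular markers tested, 7 rose and 1 fell (median 1.53, or 1.21 with the 3 genes dim in all controls at their bounds), and their summed relative signal was 6.07 to 10.9 in DEN livers and 2.37 to 2.84 in controls. Keratin 19 (Krt19) had relative signals of 2, 2.78 and 1.47 in DEN livers and 0.412, 0.341 and 0.238 in controls (2.64 ± 0.42, adjusted p = 0.000154). Epcam had 2.75, 4.02 and 2.57 in DEN livers and 1.1, 1 and 1.07 in controls (1.53 ± 0.21, 4.24e-05). The chloride channel Cftr was at least 4.87-fold higher (0.000664). All 7 that rose were highest in DEN 2. Prom1 and Cd44 of the focus list are also known from ductular cells, and the part of such cells in the rise of the focus markers was not tested.

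Stromal genes rose moderately. Of 16 extracellular matrix genes 9 rose and 1 fell (median 0.83), and of 14 matrix proteases and inhibitors 9 rose and 2 fell (median 0.91). The laminin chain Lama5 had relative signals of 3.06, 2.54 and 3.11 in DEN livers and 0.268, 0.201 and 0.185 in controls (3.75 ± 0.34, adjusted p = 1.64e-06). The collagen chains Col1a2 and Col4a1 rose by 1.12 ± 0.30 and 1.32 ± 0.23, and decorin (Dcn) by 1.59 ± 0.32. The probe used for Col1a1 had a difference of 0.54 ± 0.36 (0.219), while its other probes rose, by up to 2.32. Fibronectin (Fn1), also secreted by hepatocytes, fell by 0.92. The metalloproteases Mmp12 and Mmp7 were at least 16.6-fold and 3.61-fold higher, and the inhibitor Timp1 rose by 1.37 ± 0.25. Among stellate cell markers 5 of 11 rose and 1 fell, including Cygb (1.21 ± 0.28), Vim (1.07 ± 0.24) and Des (1.14 ± 0.35), and their summed signal was 29.5 to 32.5 in DEN livers and 21.2 to 25.2 in controls. Acta2, smooth muscle actin of myofibroblasts, had a difference of 0.25 ± 0.50 (0.689).

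Immune markers changed less and not all one way. Of 16 macrophage markers 2 rose and 1 fell (median -0.02), the risen ones being Gpnmb (1.91 ± 0.17, adjusted p = 1.85e-06) and Trem2 (at least 6.48-fold higher, 0.00585), both known from macrophages of injured liver. Cd68 and Adgre1 had differences of 0.28 ± 0.13 (0.0737) and -0.05 ± 0.19 (0.848). Of 8 genes of MHC class II presentation 6 rose (median 0.90), including RT1-DMa (1.19 ± 0.23) and RT1-Da (1.11 ± 0.21). Of 13 T and NK cell markers 5 rose and 1 fell (median 0.36), among them Zap70 (1.09 ± 0.18) and Cd8b (0.93 ± 0.18), while granzyme A (Gzma) fell by 0.89. Of 21 interferon-stimulated genes 3 rose and 7 fell (median -0.29, but 0.41 with spike-in scaling). These counts stand beside 22.3% of all genes tested that rose and 32.8% that fell. The chemokine Cxcl12 had relative signals of 12.4, 7.31 and 18.1 in DEN livers and 54.7, 53.9 and 57.7 in controls (-2.23 ± 0.26, 1.36e-05), whereas Cxcl16 rose by 1.41 ± 0.23 and Cxcl13, above background on 2 control arrays, by 2.09 ± 0.35.

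Red cell markers were lower with DEN. Of 6 erythroid markers 4 fell (median -0.78, -0.07 with spike-in scaling), and their summed signal was 382 to 567 in DEN livers and 944 to 1080 in controls. Hba-a1, a globin chain, fell by 1.20 (adjusted p = 0.000719). Summed markers of hepatocytes were 2030 to 2370 in DEN livers and 3370 to 3520 in controls. The gap depends on the scaling, as their median difference of -0.66 became -0.09 with quantile normalization and 0.04 with spike-in scaling. The part of blood content and of the share of hepatocytes in the other results was not tested.

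The 4 genes the study followed up, known from the study rather than from the labels, all fell at day 84. Cdh17, a cadherin, had relative signals of 14.4, 5.64 and 15 in DEN livers and 34.8, 36.3 and 31.9 in controls (-1.68 ± 0.34, adjusted p = 0.000901). Proc, the anticoagulant protein C, fell by 0.76, Ldlrad4, a brake on TGF-beta signalling, by 0.41 and the transcription factor Nfia by 0.35, and the last 2 were 0.29 and 0.35 higher with scaling to the spike-in probes. The Nfia call was lost without DEN 1. The study chose these genes on samples that include these, so their direction is not independent evidence.

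The DEN response at day 84 was compared with that at day 28, which has DEN and control arrays of its own on another slide. At day 28, 1684 of the same genes, which were kept by their signal at day 84, passed the threshold (16.2%), 865 higher (8.31%) and 819 lower (7.87%). Of the genes that rose at day 84, 563 also rose at day 28, which is 24.3% of the day-84 rises and 65.1% of the day-28 rises. Of those that fell, 587 also fell at day 28 (17.2% and 71.7%). There were 22 genes that rose at day 84 and fell at day 28, and 22 that fell at day 84 and rose at day 28. The difference between the effects was itself tested, and passed for 1787 genes (17.2%), 843 of them higher at day 84 (8.10%) and 944 lower (9.07%). Without DEN 2 of day 84 that count was 930, and without DEN 1 of day 28 the day-28 count was 738.

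Focus markers and NRF2 targets had larger effects at day 84, and p53 targets did not. Of the 21 preneoplastic markers, 11 had a higher effect at day 84 and none a lower one. In the NRF2 list the counts were 16 higher and 2 lower of 27. In the mitosis list they were 13 higher and none lower of 22. In the p53 list, 1 was higher and 6 were lower of 25.

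Gstp1 had relative signals of 33.4, 30 and 31.8 in DEN livers and 20.2, 19.2 and 14.4 in controls at day 28, a difference of 0.84, and the day-84 effect was larger by 3.87 ± 0.15 (adjusted p = 2.46e-09). Aldh3a1 had 0.278, 0.321 and 0.269 in DEN livers and 0.378, 0.354 and 0.355 in controls at day 28 (-0.33, adjusted p = 0.411), and the effect at day 84 was larger by 7.45 ± 0.38 (3.29e-08). Aldh1a1 stood apart among the focus enzymes, with differences of 3.58 at day 28 and 3.29 at day 84, which did not differ beyond their error (-0.29 ± 0.30, 0.517).

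Ccng1 had relative signals of 11.2, 9.71 and 11.8 in DEN livers and 1.88, 1.71 and 1.8 in controls at day 28, and its effects of 2.60 at day 28 and 2.15 at day 84 did not differ past the threshold (-0.45 ± 0.16, adjusted p = 0.0639). Mgmt had a smaller effect at day 84, by -0.68 ± 0.19 (0.0234), as did the p53-induced nuclease Aen, with 1.83 at day 28 and 0.57 at day 84 (0.000542). Cdkn2a was well above background on no DEN array and 1 control array at day 28, and its 2 probes gave differences of -1.19 and 0.17 there, so no direction is given for that day.

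For dividing-cell genes the controls of the 2 days differed as well. Cdk1 had relative signals of 7.87, 6.75 and 3.4 in DEN livers and 3.26, 3.13 and 2.87 in controls at day 28, so that both the higher DEN signal and the lower control signal at day 84 enter the larger effect (1.98 ± 0.41, adjusted p = 0.00654). Slide and day cannot be told apart in these levels.

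**Figure D4:**
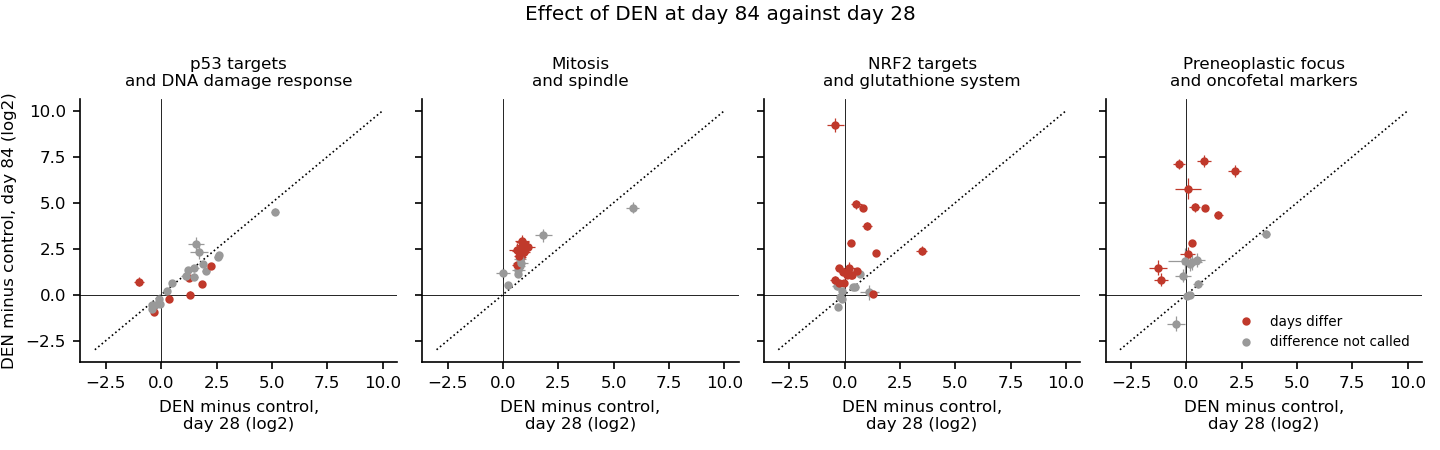
Effect of DEN (DEN minus control, log2, ± SE) at day 28 on the horizontal axis and at day 84 on the vertical axis for members of the p53, mitosis, NRF2 and preneoplastic lists. Each point is 1 gene, red where the effects of the days differed at an adjusted p under 0.05, and the dotted line marks equal effects; the median difference between days was 1.96 for preneoplastic markers, 0.78 for NRF2 genes and -0.37 for p53 targets.

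CCl4, a liver toxicant regarded as non-genotoxic, was set against DEN directly at day 84. In that comparison, CCl4 minus DEN without any control array, 3543 genes passed (34.0%), 1812 higher with CCl4 (17.4%) and 1731 lower (16.6%). CCl4 was given in corn oil and DEN in saline, so compound and vehicle cannot be told apart in this comparison. The genes tested were kept by their signal in DEN or control livers at day 84, so genes bright only with CCl4 are not counted. With probes above background in any of the 6 groups, 2021 genes were higher with CCl4 and 1722 lower. With the slide as a block 1935 passed, 921 higher and 1014 lower. Of the CCl4 livers, 1 was on the slide of the DEN livers. None of 25 p53 targets was higher with CCl4 and 15 were lower. Ccng1 had relative signals of 2.86, 2.59 and 2.8 in CCl4 livers and 8.11, 6.58 and 9.01 in DEN livers (-1.51 ± 0.11, adjusted p = 6.24e-07). Mgmt had 20.5, 19.1 and 18.4 in CCl4 livers and 48.2, 37.5 and 53.5 in DEN livers (-1.25 ± 0.13, 1.4e-05). No CCl4 liver reached the lowest DEN liver in either gene.

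Of 27 NRF2 genes 20 were lower with CCl4 than with DEN and 2 higher, and of 21 preneoplastic markers 11 were lower and 7 higher. Gstp1 had relative signals of 52.4, 49 and 50.5 in CCl4 livers against 543, 513 and 569 in DEN livers (-3.42 ± 0.11, adjusted p = 1.09e-10). Aldh3a1 had 0.392, 0.359 and 0.334 in CCl4 livers against 55.7, 80 and 26.4 in DEN livers (-7.09 ± 0.27, 8.06e-10). Gpx2 was closer, at 32.1, 37.3 and 39.4 in CCl4 livers and 63.1, 116 and 47.8 in DEN livers (-0.96 ± 0.31, 0.0288). Ugt2b7 and Mup4, above background on 2 CCl4 arrays, were also lower with CCl4, by -7.78 and -8.04, while Cyp2c24 had a difference of -0.31 (0.399). Pcp4, Dnaaf1 and Trim54 were not well above background on any CCl4 array (adjusted p = 3.28e-09, 3.28e-09 and 1.58e-07 against DEN).

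Dividing-cell and stromal genes were higher with CCl4. In the mitosis list 14 of 22 were higher and 1 lower, in the extracellular matrix list 14 of 16 were higher and none lower, and in the cholesterol list 18 of 21 were higher and 1 lower. Mki67 had relative signals of 7.43, 7.63 and 8.8 in CCl4 livers and 3.94, 4.48 and 3.48 in DEN livers (1.01 ± 0.20, adjusted p = 0.00169). The respiratory chain subunit Cox6a2, an isoform of striated muscle, had 13.1, 15.5 and 16.5 in CCl4 livers and 0.181, 0.206 and 0.11 in DEN livers (6.55 ± 0.27, 1.49e-09). Trem2 had 15.8, 13.2 and 13.1 in CCl4 livers and 0.43, 0.625 and 0.406 in DEN livers (4.87 ± 0.78, 0.000362). Both genes separated these treatments on every array. Acot1, the sulfotransferase Sult2a2 and Srpx2 were also higher with CCl4, by 5.60, 5.28 and 4.23.

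**Figure D5:**
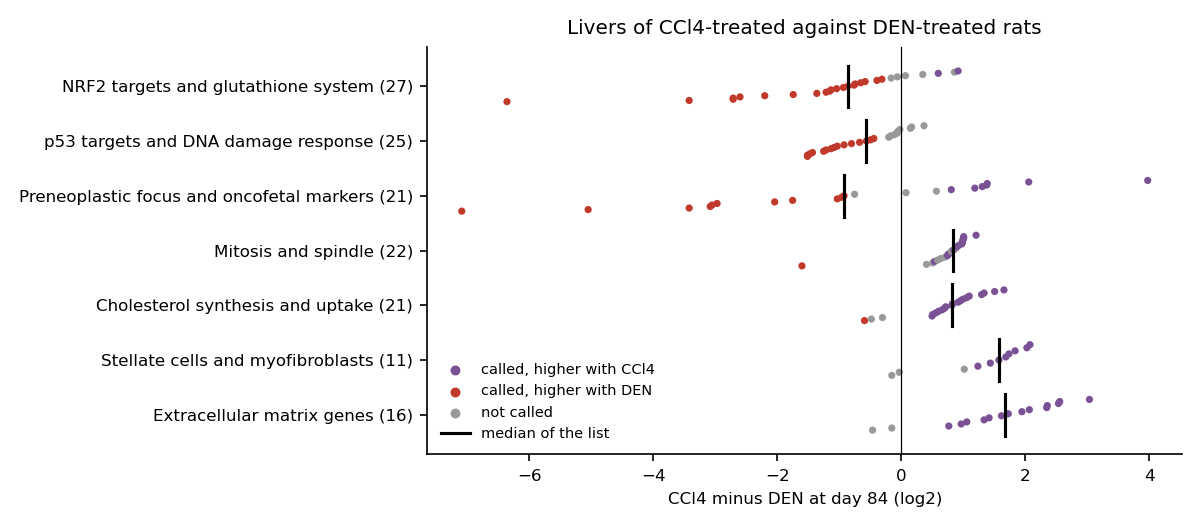
CCl4 minus DEN at day 84 (log2) for the tested members of 7 gene lists. Each point is 1 gene, purple where it was higher with CCl4, red where it was higher with DEN and grey where the adjusted p was not under 0.05, and black bars are list medians, at -0.56 for p53 targets and 1.68 for extracellular matrix genes.

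The 3 DEN livers differed among themselves along one pattern. Of the 18 focus markers that rose, 13 were highest in DEN 2, as were 16 of 20 risen NRF2 genes and 19 of 22 mitosis genes. Among all 2319 genes that rose, 1676 were highest in DEN 2. The risen p53 genes ran the other way, with 1 of 16 highest and 10 of 16 lowest in DEN 2. All 15 P450 enzymes that fell and 19 of 20 fallen hepatocyte secretory genes were lowest in DEN 2, as were 2183 of all 3409 genes that fell. The median deviation of the focus markers from the DEN mean was -0.03, 0.39 and -0.35 in DEN 1, DEN 2 and DEN 3 (log2), and that of the risen p53 genes 0.06, -0.16 and 0.15. These are descriptions of 3 livers without a test.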

How the data were processed

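RNA of 18 rat livers was hybridised to 1-colour Agilent arrays, and the deposited intensity values (processed signal, background flags) were written by Agilent Feature Extraction 10.7.1.1, per the submitters' processing notes. The processed signals were divided by the 75th percentile of each array and taken to log2. The authors' deposited value table holds a linear ratio, the processed signal over a constant per array near its 75th percentile, as found by setting it against the scanner files, and its log2 was used as an alternative only. Groups came from the sample titles. Probes well above background on all 3 arrays of DEN or of control livers at day 84 were kept, and of 61537 probes 28206 were matched by RefSeq accession to 15645 genes (GRCr8 gene table). Each gene was given its brightest such probe over the 18 arrays. limma 3.58.1 (R 4.3.3) fitted 1 mean per group over all 18 arrays, with 12 residual degrees of freedom, two-sided tests and Benjamini-Hochberg adjustment over 10409 genes. Values and calls of further probes of a gene came from a separate fit of all matched probes kept, with adjustment over those probes. The script was tested on simulated data. The precision is limited by 3 arrays per group. The genes named are the largest changes in each comparison, up to 4 called genes per list ranked by adjusted p, those listed first, and genes singled out with a remark. Some genes that the rule names are not reported here. The members and lists were chosen with earlier results of these data known. Same-numbered DEN and control livers did not deviate together (r = 0.155, -0.073 and -0.012), so the fit has no pairing. Alternatives were other background corrections, scalings, filters, blocks, probe rules and leaving out each array. No probe carried the saturation flag, and 18 probes flagged as outliers on some array were left out. Promoters were read from a RefSeq table with Python 3.11.15 and figures drawn with matplotlib 3.10.9.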

Additional observations from a re-analysis of the deposited data

Results flagged for a closer look

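The DEN effect differed between day 84 and day 28 for many genes, by the test of the difference itself (limma, adjusted p under 0.05). It was more positive at day 84 for 843 genes and more negative for 944. The genes with the most positive differences (day 84 minus day 28, log2) were Slc7a11 with 9.67, Ugt2b7 with 8.95, Bex1 with 8.92, Defb1 with 8.72, Pcp4 with 8.38, Dnaaf1 with 8.18, Epdr1 with 7.53 and Aldh3a1 with 7.45. All but Aldh3a1 were dim in the controls of day 84, so these fitted sizes are no bounds. The most negative differences were those of Plppr1 with -4.56, Mmd2 with -4.51, Casr with -4.1, Aox3 with -3.58, Slc25a30 with -3.19, C1h11orf86 with -2.8, Cadps with -2.67 and Inhba with -2.63. Of these, Mmd2 and Cadps were not well above background on any DEN array of day 84, and Plppr1 was above it on only 1 of them, so their sizes are no bounds either. For Casr, the calcium-sensing receptor, the effect at day 84 alone did not pass (adjusted p = 0.0574), and its controls at day 84 spread over relative signals of 0.516, 0.344 and 0.103.

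Probes matched to no gene carried signal that the report does not use. Of 14005 such probes tested, 2226 were higher with DEN at day 84 (15.9%) and 4309 lower (30.8%), and 850 were at least 2-fold higher and 739 at least 2-fold lower.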

How the results depend on the processing

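With scaling to spike-in probes 7308 genes were called higher and 298 lower at day 84, so the share of calls that were higher was 96.1%, against 40.5% in the reported fit, 48.3% with quantile normalization and 33.2% with median scaling. All 2319 rises stayed called under it and 8.74% of the falls did. Under it the log2 difference was 0.01 for Ftl1, 0.45 for Sqstm1, 0.44 for Ccnd3, 0.02 for Cdk2, 0.51 for Mpg, 0.15 for Cdkn1a, 0.1 for Hnf4a, 0.04 for Serpina1, 0 for Fbp1, 0.13 for Lyz2, 0.42 for Pecam1, 0.24 for Cox4i1, 0 for Tet3, 0.29 for Ldlrad4 and 0.35 for Nfia, and quantile normalization gave 0.02 for Serpina1. Averaging probes gave 0.17 for Ftl1 and 2.35 for Cdkn1a, whose probes disagree. For the difference between days spike-in scaling gave 896 genes, 88 of them lower, no filter gave 594 lower and a fit of only the arrays compared 1434 lower. At day 28 the count was 3721 with spike-in scaling, 3653 of them higher and 68 lower, and 1118 with no filter, 479 of them lower, while 545 were lower with normexp and 467 with quantile normalization. For CCl4 against DEN the slide block gave 1935, 921 higher and 1014 lower, and spike-in scaling 738 higher. The cause was not tested beyond the shift of 0.70 between DEN and control at day 84. Leaving out 1 array gave 4622 to 5476 genes at day 84 (1836 to 2221 higher, 2786 to 3255 lower), 930 to 2177 for the difference between days (497 to 978 higher, 433 to 1199 lower), 738 to 1344 at day 28 (451 to 804 higher, 287 to 540 lower) and 2613 to 3083 for CCl4 against DEN (1364 to 1670 higher, 1249 to 1457 lower). The replicate block gave 5667 genes at day 84, 2304 higher and 3363 lower, but the numbers do not pair the livers. The spread of 3 arrays and signals near background limit what could be called.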

Other observations

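The counts of other groups stand beside 22.3% of all genes tested that rose with DEN at day 84 and 32.8% that fell. Of 16 circadian clock genes and outputs 6 fell and 1 rose (median -0.32, but 0.38 with spike-in scaling). The activators Npas2 and Bmal1 fell by 2.02 and 1.87 on the log2 scale, with differences of -0.65 and -1.19 on their other probes. Their controls spread widely, with relative signals of 1.68, 1.4 and 0.679 for Npas2 and 2.04, 1.39 and 0.673 for Bmal1. The part of sampling time was not tested. Per1, Per2 and Per3 had differences of 0.38 ± 0.30, 0.13 ± 0.26 and 0.16 ± 0.19, none past the threshold. The repressor Ciart was at least 1.39-fold higher, and was named after its value was seen. Of 14 genes of DNA methylation and methyl donors 7 fell and 2 rose (median -0.40, but 0.31 with spike-in scaling). Gnmt, which consumes S-adenosylmethionine, fell by 1.40, and the maintenance methyltransferase Dnmt1 had a difference of -0.22 ± 0.19. Of 13 adhesion and junction genes 8 fell and 4 rose (median -0.36, but 0.34 with spike-in scaling), the tight junction protein Cldn1 by 1.60 and the hepatocyte gap junction protein Gjb1 by 1.17. Of 17 genes of TGF-beta and growth factor signalling 5 rose and 6 fell (median -0.19, but 0.52 with spike-in scaling). The target Id1, above background on 2 control arrays, rose by 2.65 ± 0.37, while the receptors Tgfbr2, Met and Egfr fell by 0.84, 0.92 and 1.27.

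Glycolytic isozymes were split, with 4 of 14 rising and 4 falling (median 0.11). Hk1, a hexokinase of most tissues, rose by 1.21 ± 0.20, while liver pyruvate kinase (Pklr) fell by 1.0. Of 18 chemokines and receptors 7 rose and 3 fell (median 0.36). Endothelial markers fell in 4 of 7 cases (median -0.32, but 0.38 with spike-in scaling), with a summed relative signal of 42.2 to 49.4 in DEN livers and 58 to 72.3 in controls. Of 3 adipose markers tested 1 rose and 2 fell, the lipid carrier Fabp4 being at least 24.1-fold higher (adjusted p = 3.49e-08). Of 5 B cell markers 1 rose and 2 fell, and of 3 mast cell markers 1 rose and 1 fell. Of the 5 hepatocyte markers 4 fell (median -0.66, but 0.04 with spike-in scaling).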
